A study of Mus musculus with 4 samples.

Results

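Glycolysis and hypoxia response genes were followed in mouse first pharyngeal arch tissue, from which the jaws develop. The set was chosen by gene symbol, among rows with a mean of at least 10 normalized reads over the 4 libraries, and held 34 genes: 2 glucose transporters, 17 genes of the glycolytic chain and its control, 4 genes of pyruvate and lactate handling, 7 targets of the hypoxia response and 4 genes of oxygen sensing. All 34 were among the 52459 genes listed, and all 34 reached that mean, as 16746 genes did. The lowest was Eno2 at 12.9, the next was Adm at 58.6, and no member lay under the minimum. Polyadenylated RNA came from 25 to 27 somite embryos, between E9.5 and E9.75. There were 2 wild-type libraries and 2 libraries of the genotype Wnt1-Cre;pMes-Bmp4, called transgenic here. In that genotype a Cre recombinase under Wnt1 regulatory sequences, which are active in the neural crest lineage, switches on the Bmp4 transgene pMes-Bmp4, and Bmp4 encodes a secreted growth factor. Neither allele was present alone in any group, so the effects of added Bmp4, of the Cre line and of strain background cannot be told apart. The labels do not say whether a library was made from 1 embryo or from a pool, so p-values measure the spread between these libraries, which may be technical.

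Glycolysis splits glucose into pyruvate in the cytosol and yields ATP without oxygen. Lactate dehydrogenase then turns pyruvate into lactate, and pyruvate dehydrogenase kinase inhibits pyruvate dehydrogenase, which uses pyruvate in the mitochondria. When oxygen is low, prolyl hydroxylases of the Egln family no longer mark the alpha subunits of hypoxia-inducible factor (HIF) for destruction, and HIF then raises glucose transporters, glycolytic enzymes, Vegfa and Bnip3 through short DNA elements near their start sites. Embryos of this stage are known for a high rate of glycolysis and lactate production.

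Libraries held 29607541 to 47849092 reads assigned to genes. Bmp4, the gene carried by the transgene, was at 681.7 and 437.1 normalized reads in wild-type, against transgenic values of 2656 and 1745, where transgene reads may be counted together with endogenous ones. Of 14 markers of first arch crest mesenchyme all 14 reached the minimum level, with Prrx1, a homeobox gene of facial mesenchyme, at 3863 to 5936 in the 4 libraries. Of all genes tested, limma called 8.25% at an adjusted p under 0.05, 2.97% as higher and 5.28% as lower in the transgenic libraries. Almost all of these calls were lost when either wild-type library was left out. In such a fit the spread within groups came from the transgenic libraries alone. The loss therefore does not show that the differences rest on both wild-type libraries.

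Of the 34 genes 2 passed, in opposite directions, while most of the others had small positive values. Bnip3, a mitochondrial protein that promotes mitophagy, rose 1.64-fold, and Hk2, the inducible hexokinase that traps glucose in the cell, fell 1.91-fold, as ratios of group means. The other 32 genes did not pass, so that 1 of 34 was higher and 1 lower, 5.88% in all against the 8.25% of all genes tested. The median log2 fold change was 0.19 over the members and 0.02 over all genes tested, and 25 of the 34 values were positive where 51.3% of all genes tested had a positive value. Both transgenic libraries lay above both wild-type libraries for 18 members, where 30% of all genes tested did so, and below them for 3 members, where 29.7% did. The groups overlapped for the other 13 members, and the share of members with groups apart was close to the 59.7% of all genes tested. At an unadjusted p under 0.05, limma gave 8 members higher and 2 lower, against 13.4% and 15.3% of all genes tested (28.8% together). On the recovered reads edgeR called the same 2 members, against 7.91% of all genes (2.44% higher, 5.46% lower), and DESeq2 called 5 higher and 2 lower, against 7.37% and 9.39%. With transcript length corrected limma called 0 members, against 1% of all genes. There 5 were higher and 3 lower at an unadjusted p under 0.05. The share of all genes at that p was not taken in this fit, so these counts are no result about the members. With length and GC content corrected limma called 1 member higher and 2 lower, against 3.59% and 4.29%. Without transgenic 1 limma called 9 members higher and 3 lower where it called 32.2% of all genes, and without transgenic 2 it called 6 higher and 4 lower where it called 18.5%. In RNA of a whole arch, fewer cells of a type and less RNA per cell cannot be told apart. Fold changes are differences of log2(value + 1), transgenic minus wild-type, which understates the change of low genes.

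**Figure D1:**
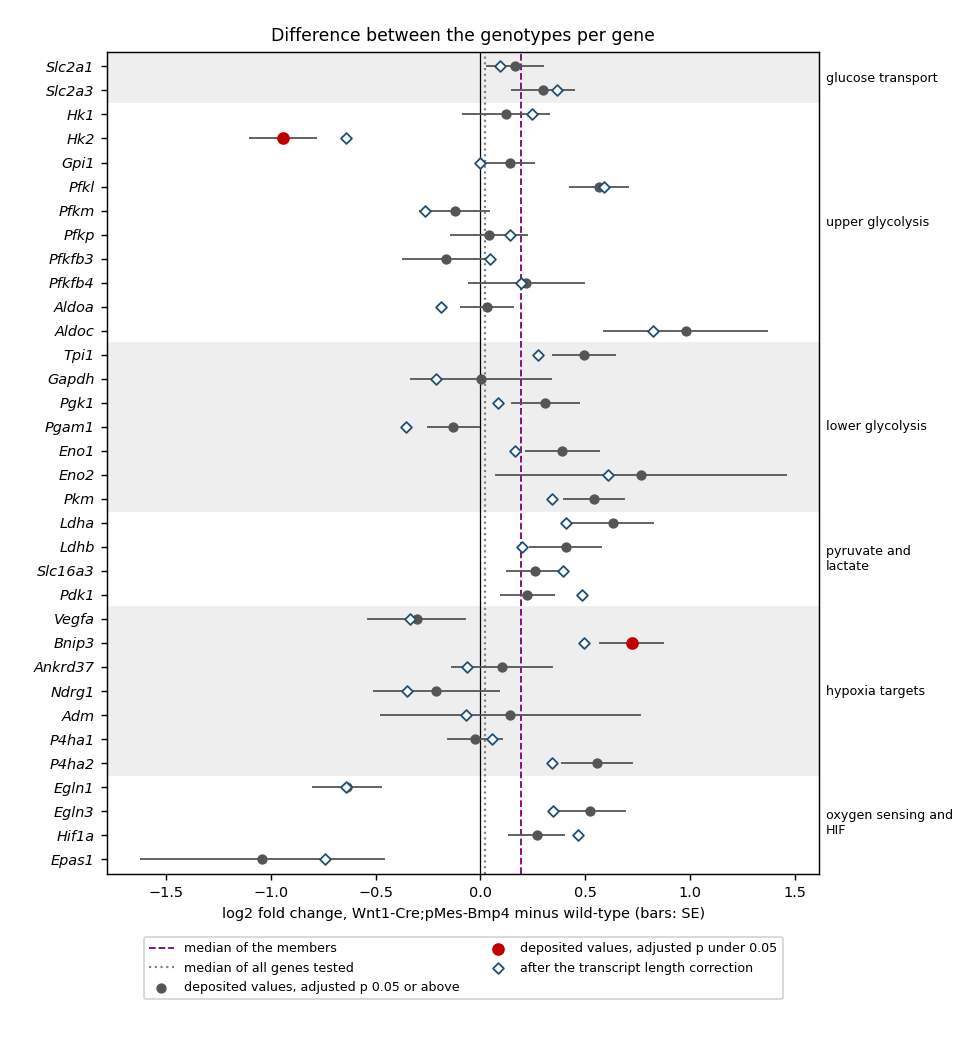
Log2 fold change of each of the 34 genes, transgenic minus wild-type, with bars for the standard error of the limma fit on 2 libraries a group, grouped by role; red points passed at an adjusted p under 0.05, open diamonds are the values after a correction for transcript length, and lines mark the median of the members (0.19) and of all genes tested (0.02). Bnip3 at 0.72 and Hk2 at -0.94 are the 2 red points, and both open diamonds of these genes lie closer to 0, at 0.50 and -0.64.

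Hk2 was at 2082 and 2302 normalized reads in the wild-type libraries and at 1280 and 1011 in the transgenic libraries. Both transgenic libraries were low and the groups did not overlap, with means of 2192 ± 155 (SD, n = 2) and 1145.5 ± 190 (SD, n = 2). The fit gave -0.94 ± 0.16 (log2 fold change ± SE) and a limma adjusted p of 0.0268. In tests of the recovered whole reads the adjusted p was 0.0249 in edgeR and 1.77e-05 in DESeq2. In GRCm38 the gene spans 82725025 to 82774454 of chromosome 6, and its longest transcript has 5513 bases. A non-coding gene on the opposite strand, Gm17034, overlaps it and held 0 to 4.27 normalized reads. In limma without the trend the adjusted p was 0.152, but there no gene of the 16746 tested passed. The call was lost without wild-type 1 (log2 fold change -1.02) and without wild-type 2 (-0.87), where the spread came from the transgenic libraries alone. The call was also lost after the correction for transcript length (-0.64, limma adjusted p 0.0702). It was kept after the correction for length and GC content, at -0.58 with a limma adjusted p of 0.0301.

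Bnip3 was at 2246 and 1800 normalized reads in wild-type, against transgenic values of 3161 and 3479. The groups did not overlap, with means of 2023 ± 315 (SD, n = 2) and 3320 ± 224 (SD, n = 2), and wild-type 2 was the lowest library. The fit gave 0.72 ± 0.15 (log2 fold change ± SE) and a limma adjusted p of 0.038, and the adjusted p was 0.0419 in edgeR and 0.00115 in DESeq2. In GRCm38 the gene spans 138890836 to 138909519 of chromosome 7. Its longest transcript has 1756 bases, against a median of 2859 over all genes tested. In limma without the trend the adjusted p was 0.167, but there no gene of the 16746 tested passed. The call was lost without wild-type 1 (log2 fold change 0.88) and without wild-type 2 (0.56), where the spread came from the transgenic libraries alone. With a replicate block it was lost too (limma adjusted p 0.0688). The same held after the correction for transcript length (0.50, 0.104) and after that for length and GC content (0.31, 0.16). Over all genes tested the length correction left 1% called, and the correction for length and GC content left 7.88%.

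The sequences upstream of these 2 genes, which passed in opposite directions, of the paralogues Egln1 and Egln3, which differed in sign, and of Ldha, the member with the most reads in its own row, are shown because members of the set are classical HIF targets. Each is the 250 bases before a RefSeq start site, from GRCm38.p6, printed 5′ to 3′ on the strand of the gene, with every match to the core of the hypoxia response element in capitals. The letters searched were ACGTG and GCGTG, also read on the other strand as CACGT and CACGC. The palindrome CACGTG counts as 2 overlapping matches.
Bnip3, chr7:138909507-138909756, minus strand: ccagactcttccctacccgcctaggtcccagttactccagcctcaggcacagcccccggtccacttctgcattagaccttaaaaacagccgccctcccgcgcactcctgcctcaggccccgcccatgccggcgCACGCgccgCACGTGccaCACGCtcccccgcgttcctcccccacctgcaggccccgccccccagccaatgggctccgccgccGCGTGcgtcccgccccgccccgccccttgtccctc
Hk2, chr6:82774455-82774704, minus strand: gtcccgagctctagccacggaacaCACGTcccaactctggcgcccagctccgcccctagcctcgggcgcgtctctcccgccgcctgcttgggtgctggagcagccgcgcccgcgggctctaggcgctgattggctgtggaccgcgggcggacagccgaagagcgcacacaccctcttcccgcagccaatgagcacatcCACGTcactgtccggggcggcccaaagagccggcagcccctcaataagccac
Egln1, chr8:124949255-124949504, minus strand: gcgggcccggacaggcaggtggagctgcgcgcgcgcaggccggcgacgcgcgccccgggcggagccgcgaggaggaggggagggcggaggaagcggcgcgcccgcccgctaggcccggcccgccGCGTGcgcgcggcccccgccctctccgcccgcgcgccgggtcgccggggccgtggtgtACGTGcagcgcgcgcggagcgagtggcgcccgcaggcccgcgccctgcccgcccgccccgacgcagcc
Egln3, chr12:54203875-54204124, minus strand: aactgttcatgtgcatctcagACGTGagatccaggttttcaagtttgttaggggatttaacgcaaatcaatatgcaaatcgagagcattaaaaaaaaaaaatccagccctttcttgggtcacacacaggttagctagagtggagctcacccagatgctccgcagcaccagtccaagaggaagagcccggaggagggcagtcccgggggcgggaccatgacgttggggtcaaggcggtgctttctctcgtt
Ldha, chr7:46845554-46845803, plus strand: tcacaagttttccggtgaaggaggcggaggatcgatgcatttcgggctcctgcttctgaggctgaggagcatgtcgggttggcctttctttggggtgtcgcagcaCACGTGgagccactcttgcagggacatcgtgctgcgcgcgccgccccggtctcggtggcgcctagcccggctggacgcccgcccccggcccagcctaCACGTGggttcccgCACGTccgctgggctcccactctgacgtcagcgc

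Bnip3 had 5 matches and Hk2 had 2, so that both genes that passed, the higher and the lower, carried the letters in this window. Ldha had 5 matches before the upstream of its 2 RefSeq starts and 1 before the other. Egln1 had 2 matches and Egln3 had 1. The table of promoters held 45 start sites of 31 of the 34 members (not Epas1, Slc2a3 and Ndrg1), and 36 of these 45 windows (80%) had at least 1 match, against 38.6% of all 32851 windows of this length. The letters hold CG, and the windows of the members had a median GC content of 60.4% against 52.4% over all windows. Only Eno2, Gpi1 and Tpi1 had 0 matches before every start site in the table. A match is a run of letters and does not show that a factor bound there.

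Glucose transport opens the pathway. Slc2a1, the basal glucose transporter of most tissues, was at 5223 and 4299 normalized reads in wild-type, against transgenic values of 5352 and 5263. Slc2a3, a transporter of high affinity, was at 5123 and 4006 in wild-type, against transgenic values of 5790 and 5351. In both genes wild-type 2 was the low library, and the transgenic libraries lay just above wild-type 1. The log2 fold changes were 0.16 ± 0.14 (SE) and 0.30 ± 0.15 (SE), with limma adjusted p values of 0.474 and 0.247, so neither passed.

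In upper glycolysis, from glucose to the triose phosphates, 1 of 10 genes was lower (Hk2) and 9 did not pass, with a median log2 fold change of 0.08. Pfkl, the liver-type subunit of phosphofructokinase, the committed step of the pathway, was at 6735 and 6519 in wild-type, against transgenic values of 10974 and 8777. Both transgenic libraries were high, with transgenic 1 highest. Its log2 fold change was 0.57 ± 0.14 (SE) and missed the threshold in limma (adjusted p 0.055) and edgeR (adjusted p 0.0647), while DESeq2 gave an adjusted p of 0.00522. Unlike the value of Hk2, that of Pfkl was not smaller with length corrected (0.59, limma adjusted p 0.0721), and it passed after the correction for length and GC content (0.73, limma adjusted p 0.02). The other phosphofructokinase subunits did not pass: Pfkm, the muscle type, had a log2 fold change of -0.12, and Pfkp, the platelet type, 0.04, with limma adjusted p values of 0.666 and 0.909.

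Hk1, the constitutive hexokinase, was at 270.7 and 314.7 in wild-type, against transgenic values of 353 and 286.1, an overlap of the groups, and its log2 fold change was 0.12 ± 0.21 (SE). Aldoc, the brain-type aldolase, was low throughout, at 29.7 and 51.4 in wild-type, against transgenic values of 85.3 and 71.5 (log2 fold change 0.98 ± 0.39 SE, limma adjusted p 0.155). Aldoa, the main aldolase, was at 59101 to 63305 in all 4 libraries, with a log2 fold change of 0.03. Gpi1, which converts glucose phosphate to fructose phosphate, gave 0.14. The bifunctional enzymes Pfkfb3 and Pfkfb4, which set the level of the activator of phosphofructokinase, gave -0.17 and 0.22. None of these 6 genes passed, and their limma adjusted p values ran from 0.155 to 0.895.

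In lower glycolysis, from the triose phosphates to pyruvate, 0 of 7 genes passed in limma, and 2 had an unadjusted p under 0.05, about the share of all genes tested that did (28.8%). Those 2, Pkm and Tpi1, were called higher by DESeq2, which called 16.8% of all genes, and edgeR called 0. Pkm, a pyruvate kinase gene, was at 120869 and 103463 in wild-type, against transgenic values of 161342 and 164102. The transgenic libraries were close to each other and clear of wild-type (log2 fold change 0.54 ± 0.15 SE, limma adjusted p 0.0646, DESeq2 adjusted p 0.00321). Tpi1, triose phosphate isomerase, was at 38392 and 30407 in wild-type, against transgenic values of 47188 and 49081 (log2 fold change 0.49 ± 0.15 SE, limma adjusted p 0.0842, DESeq2 adjusted p 0.0234). After the length correction the log2 fold changes of Pkm and Tpi1 were 0.34 and 0.27.

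Eno1, the ubiquitous enolase, and Pgk1, phosphoglycerate kinase, had log2 fold changes of 0.39 and 0.31, with limma adjusted p values of 0.201 and 0.263. In Eno1 the spread came mainly from wild-type, at 214196 and 160855, against 239544 and 246960 in the transgenic libraries. Pgam1, phosphoglycerate mutase, was the only enzyme of lower glycolysis with a negative value, at -0.13 (limma adjusted p 0.533), and its transgenic libraries, at 41158 and 38388, lay below wild-type at 42450 and 44506. Eno2, the neuronal enolase, had at most 17.1 normalized reads in any library.

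Gapdh, the dehydrogenase of the middle of the pathway that is often used as a reference gene, has many near-identical copies, and its own row held few of the reads of the family. The row was at 12864 and 11039 in wild-type, against transgenic values of 7872 and 18086, where transgenic 1 lay below and transgenic 2 above both wild-type libraries. GENCODE M21 holds 78 other genes with a transcript at least 95% identical to that of Gapdh over 200 bases, and 77 of them were listed. Their rows together held 148014 and 130905 normalized reads in wild-type and 134580 and 143775 in the transgenic libraries, so that the row of Gapdh held 5.53% to 11.2% of the reads of the family. One copy, Gm13394, alone held 78743 to 90474. With all copies added, wild-type summed to 160878 and 141944 and the transgenic libraries to 142452 and 161862, and the log2 fold change was 0.01 with a limma adjusted p of 0.98. The fit on the row of Gapdh alone gave 0.60 without transgenic 1 (limma adjusted p 0.000288) and -0.60 without transgenic 2 (0.000805), opposite signs that both passed. How the reads that fit several copies were assigned is not given in the sources used here.

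**Figure D2:**
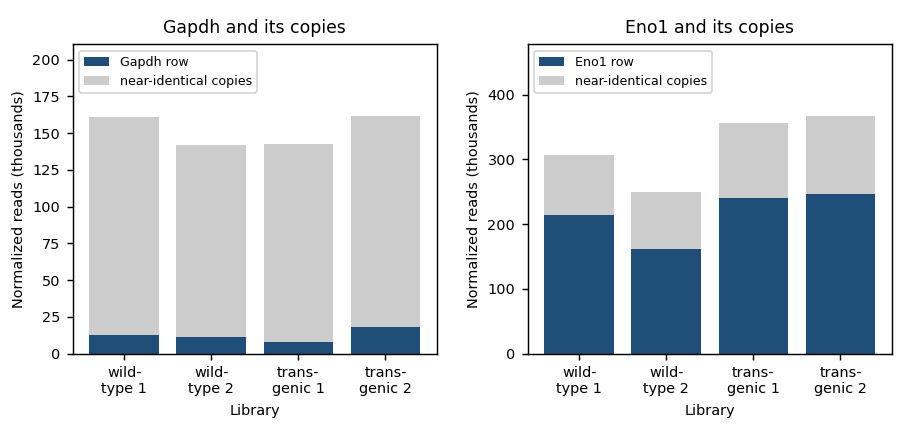
Normalized reads (linear axes from 0, in units given on the axis) of the Gapdh row and the Eno1 row and of their near-identical copies, stacked, in each of the 4 libraries; transgenic is Wnt1-Cre;pMes-Bmp4. The Gapdh row holds 5.53% to 11.2% of its family, while the Eno1 row holds 64.5% to 69.7% of its own.

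Eno1 has 3 such copies, led by Eno1b with 46562 to 60849 normalized reads, and the row of Eno1 held 64.5% to 69.7% of the sum. With the copies added its log2 fold change was 0.39, as before, with a limma adjusted p of 0.177. For Ldha, Pkm, Tpi1, Pgk1, Pgam1, Gpi1, Ldhb and Bnip3 the member's own row held at least 96% of the sum in every library, and with copies added Bnip3 kept its call (limma adjusted p 0.0346). Copies of several genes were high in transgenic 2 alone: Pgam1-ps2 was at 1588 there against 314.6 to 377.5 in the other libraries, and Pgk1-rs7 was at 1084 against 214.4 to 277.4.

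In pyruvate and lactate handling all 4 genes had both transgenic libraries above both wild-type libraries, as 30% of all genes tested did. Of the 4 genes 0 passed in limma or edgeR. At an unadjusted limma p under 0.05 there was 1, against 28.8% of all genes, and DESeq2 called 1, against 16.8%. Ldha, the lactate dehydrogenase subunit that favours lactate, was at 238953 and 188779 normalized reads in wild-type, against transgenic values of 289989 and 374697. The order of the libraries was clear but the spread inside each group was wide (log2 fold change 0.63 ± 0.20 SE, limma adjusted p 0.0866, DESeq2 adjusted p 0.00855). Ldhb, the subunit that favours pyruvate, was at 4668 and 6242 in wild-type, against transgenic values of 7834 and 6534 (log2 fold change 0.41 ± 0.17 SE, limma adjusted p 0.176). Slc16a3, which exports lactate, and Pdk1, which inhibits pyruvate dehydrogenase, had log2 fold changes of 0.26 and 0.22 with limma adjusted p values of 0.265 and 0.302. After the length correction these 2 genes, whose transcripts are long, gave 0.39 and 0.48, while Ldha and Ldhb fell to 0.41 and 0.20. The median of the 4 was 0.40, and none of them passed.

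The targets of the hypoxia response showed no common direction. Bnip3 was the 1 gene of 7 to pass, and 0 were lower, with values from -0.30 to 0.72 and a median of 0.10, which was -0.06 after the length correction. P4ha2, a prolyl hydroxylase subunit of collagen synthesis, was at 383.5 and 355.9 in wild-type, against transgenic values of 525.8 and 562.6, clearly apart (log2 fold change 0.56 ± 0.17 SE, limma adjusted p 0.0866, DESeq2 adjusted p 0.0537). After the length correction the value of P4ha2 was 0.34 (limma adjusted p 0.269). Its paralogue P4ha1 was at 1898 to 2074 in all 4 libraries, with a log2 fold change of -0.03.

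Vegfa, the growth factor of blood vessels and a textbook HIF target, was at 594.1 and 678.8 in wild-type, against transgenic values of 641 and 412.2. Only transgenic 2 was low, and the log2 fold change of -0.30 ± 0.24 (SE) did not pass (limma adjusted p 0.429). Without transgenic 2 the value was 0.01, and without transgenic 1 it was -0.62 and passed (limma adjusted p 0.0154). Adm, a vasodilator peptide induced by hypoxia, had its extremes in the transgenic group, at 39.3 and 61.7 in wild-type against 105.6 in transgenic 1 and 27.9 in transgenic 2. Ankrd37, a small ankyrin protein induced by HIF, was at 324.9 and 367.2 in wild-type, against transgenic values of 459.7 and 299.5, and Ndrg1, a stress-responsive gene, was at 86.8 and 125.5 against 91.7 and 88.5. The log2 fold changes of Adm, Ankrd37 and Ndrg1 were 0.14, 0.10 and -0.21, and without transgenic 1 those of Adm and Ankrd37 turned to -0.80 and -0.21.

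Of the 4 genes of oxygen sensing 0 passed in limma or edgeR. At an unadjusted limma p under 0.05, 1 was higher and 1 lower, against 13.4% and 15.3% of all genes tested. DESeq2 called 1 lower, against 9.39% of all genes. The 2 prolyl hydroxylases had values of opposite sign. Egln1, the main oxygen sensor, was at 1731 and 2061 in wild-type, against transgenic values of 1345 and 1094, below both wild-type libraries, with a log2 fold change of -0.64 ± 0.17 (SE). It missed the threshold in limma (adjusted p 0.0581) and edgeR (adjusted p 0.053) and passed in DESeq2 (adjusted p 0.00723), and its value was -0.64 after the length correction as well. Egln3, the paralogue of Egln1, was at 357.5 and 357.9 in wild-type, against transgenic values of 533.3 and 494.7 (log2 fold change 0.52 ± 0.17 SE, limma adjusted p 0.101). After the length correction the value of Egln3 was 0.35 (limma adjusted p 0.26). Hif1a, the alpha subunit present in most cells, was at 2163 and 2002 in wild-type, against transgenic values of 2355 and 2665 (log2 fold change 0.27 ± 0.14 SE, limma adjusted p 0.243). Its protein is controlled mainly by degradation, which RNA levels do not show. Epas1, the alpha subunit known from endothelium, was at 39.3 and 136.8 in wild-type, against transgenic values of 30.9 and 40. Wild-type 2 alone was high, so that the log2 fold change of -1.04 ± 0.59 (SE) rested on that library and did not pass (limma adjusted p 0.285). Without wild-type 2 it was -0.16, and without transgenic 2 it was -1.22 and passed (limma adjusted p 0.0397).

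**Figure D3:**
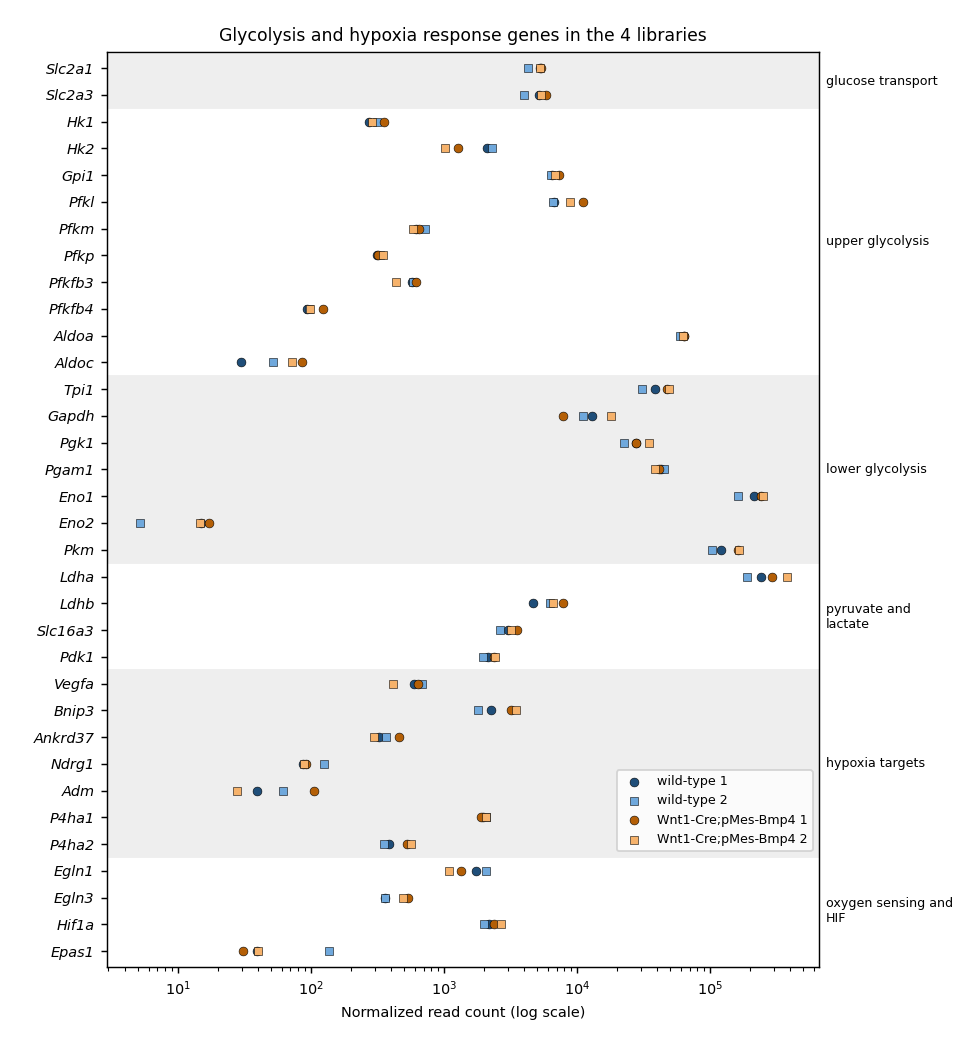
Normalized read count of each of the 34 genes in the 4 libraries (log axis), grouped by role; circles are libraries 1 and squares libraries 2, blue for wild-type and orange for Wnt1-Cre;pMes-Bmp4. Levels run from 5.14 (Eno2, wild-type 2) to 374697 (Ldha, transgenic 2), and the groups are apart for Hk2, Pfkl, Bnip3, P4ha2, Egln1 and Egln3 while they overlap for Gapdh, Adm, Vegfa and Epas1.

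Scaled by transcript length, the pathway was uneven. Per kilobase of the longest transcript, and counting each member's own row alone, wild-type levels were highest for Ldha at 117832 and Eno1 at 92514 normalized reads, then Pkm at 46121, Aldoa at 39512, Pgam1 at 24495 and Tpi1 at 21406. The kinases of the upper pathway were far lower on the same scale, at 1777 for Pfkl and 397.6 for Hk2. By their own rows Ldha was above Eno1 in each wild-type library, at 131655 and 105671 in wild-type 1 and 104010 and 79356 in wild-type 2. With near-identical copies added the order turned, with Eno1 at 151614 and Ldha at 131702 per kilobase in wild-type 1, and values of 122965 and 104047 for wild-type 2. Gapdh with its copies was at 106627 per kilobase in the wild-type mean, against 8417 for its own row, which places it above Pkm and Aldoa. By own rows Pgam1 and Tpi1 were level in wild-type 1, at 23916 and 23890 per kilobase, and Pgam1 was higher in wild-type 2, at 25074 against 18922. In both transgenic libraries Tpi1 was higher, at 29364 and 30542 against 23188 and 21627.

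Shares within paralogue sets are given as a description. The share of Hk1 in the length-scaled sum of Hk1 and Hk2 was 14.4% and 15% in wild-type and 26.2% and 26.7% in the transgenic libraries. The share of Egln3 in Egln1 and Egln3 was 21.8% and 19% in wild-type and 34.9% and 37.9% in the transgenic libraries. P4ha2 took 26% and 23.5% of P4ha1 and P4ha2 in wild-type and 33.1% and 32.8% in the transgenic libraries. In each of these 3 pairs the groups were apart by more than the difference between libraries of a group. Pfkl took 86.1% and 84.1% of the phosphofructokinase subunits in wild-type and 90.7% and 89.2% in the transgenic libraries, and the share of Slc2a3 in its pair was 44.7% and 43.4% against 47.1% and 45.6%. The share of Ldhb in Ldha and Ldhb overlapped between the groups, at 2.65% and 4.4% in wild-type and 3.62% and 2.37% in the transgenic libraries. These shares were not tested, and they were taken from values before the correction of each library for transcript length.

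**Figure D4:**
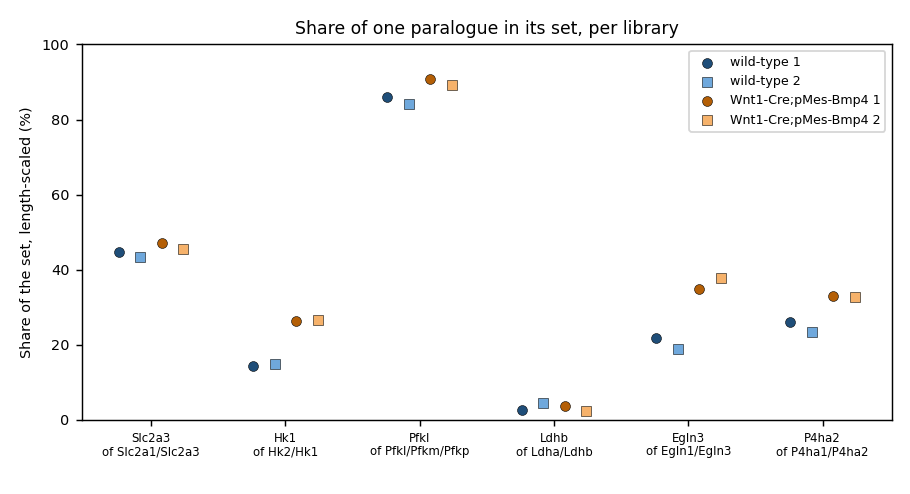
Share of the named paralogue in the length-scaled sum of its set (%, axis from 0 to 100) in each of the 4 libraries; circles are libraries 1, squares libraries 2. Hk1 of Hk1 and Hk2 moves from 14.4% and 15% in wild-type to 26.2% and 26.7% in the transgenic libraries and Egln3 from 21.8% and 19% to 34.9% and 37.9%, while Ldhb overlaps.

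Libraries of the same group also differed in these genes. In lower glycolysis 6 of 7 genes were lower in wild-type 2 than in wild-type 1, with a median log2 difference of -0.28, where the median over all genes tested was 0.01. In upper glycolysis 9 of 10 genes were lower in transgenic 2 than in transgenic 1, with a median of -0.28, where the median over all genes was -0.0044. All 34 genes together took 2.27% and 1.92% of the assigned reads in wild-type and 2.79% and 2.9% in the transgenic libraries, with 95% Wilson intervals of at most ±0.00604 percentage points that cover counting error only. Most of that share came from 3 genes, since Ldha, Eno1 and Pkm took 1.62% and 1.3% in wild-type and 2.06% and 2.19% in the transgenic libraries.

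**Figure D5:**
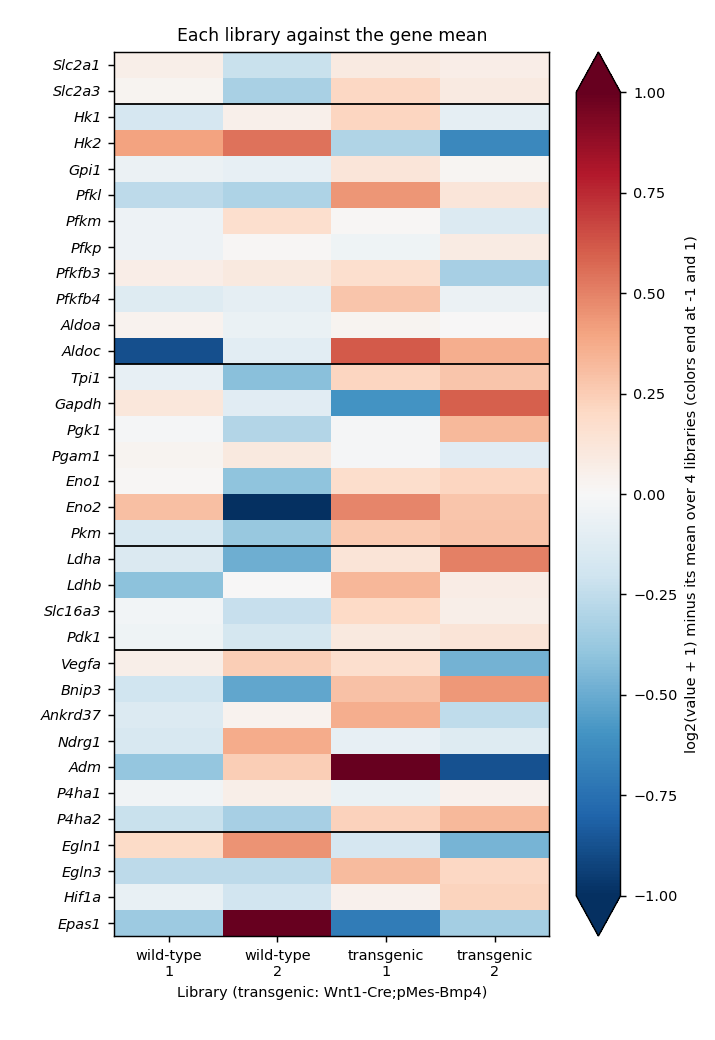
Log2(value + 1) of each gene in each library minus its mean over the 4 libraries, with colors ending at -1 and 1; lines separate the 6 roles. Wild-type 2 is below wild-type 1 for 6 of the 7 genes of lower glycolysis. Adm is high in transgenic 1, and Adm and Vegfa are low in transgenic 2.

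Further genes of the pathway were read against the same 8.25% of all genes tested. Of 30 further enzymes and transporters of glycolysis 25 were tested, 2 were higher and 0 lower, 8% of those tested, with a median log2 fold change of 0.27 that was 0.12 after the length correction. The 2 that rose stand outside the glycolytic chain: Pgam5 is a mitochondrial protein phosphatase, with a log2 fold change of 0.90 (limma adjusted p 0.0268), and Pgm3 serves the making of amino sugars, with 0.67 (limma adjusted p 0.0468). Of 13 genes of pyruvate entry to the mitochondria and its use there 2 were higher and 0 lower, 15.4% of those tested. The median log2 fold change of these 13 was 0.39, and 0.25 after the length correction. Pdhb, a subunit of pyruvate dehydrogenase, was at 6330 and 5981 in wild-type, against transgenic values of 9230 and 11342 (log2 fold change 0.73, limma adjusted p 0.0321). Pdk3, a kinase that inhibits the same enzyme, was at 1834 and 1683 against 2720 and 3037 (log2 fold change 0.71, limma adjusted p 0.0317). Of 12 genes of the pentose phosphate and serine branches 0 passed in limma. At an unadjusted limma p under 0.05 there were 3, against 28.8% of all genes, and DESeq2 called 2, against 16.8%. The smallest p was that of G6pdx, the entry enzyme of the pentose phosphate path. Its log2 fold change was 0.62, with a limma adjusted p of 0.0528.

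Of 44 further hypoxia targets, all tested, 3 passed (6.82%), of which 2 were higher and 1 lower, with a median of 0.06. Plin2, which coats lipid droplets, rose from 1831 and 1571 to 2890 and 3402 (log2 fold change 0.89, limma adjusted p 0.0264), and Wsb1, an adaptor of a ubiquitin ligase, gave 0.55 (limma adjusted p 0.0468). Cxcl12, a chemokine of mesenchyme, fell with -0.61 (limma adjusted p 0.0476). Of 17 further genes of oxygen sensing 15 were tested, and Arnt2 was the only one to pass. Arnt2, a partner subunit for HIF and related factors, was at 498.5 and 500.9 in wild-type, against transgenic values of 200.5 and 221.9, 2.37-fold lower (log2 fold change -1.24 ± 0.19 SE, limma adjusted p 0.0229). With length corrected its value was -0.86 (limma adjusted p 0.0663). That correction left none of Pgam5, Pgm3, Pdhb, Pdk3, Plin2, Wsb1, Cxcl12 and Arnt2 past the threshold, with limma adjusted p values from 0.0655 for Plin2 to 0.233 for Cxcl12. With length and GC content corrected 4 of these 8 genes passed, namely Pgam5, Pdhb, Plin2 and Arnt2, at limma adjusted p values from 0.0274 for Plin2 to 0.0443 for Arnt2.

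Markers of other cell types were read beside these genes. Of all genes tested limma called 2.97% higher and 5.28% lower, 28.8% had an unadjusted p under 0.05, and DESeq2 called 16.8%. Of 13 erythroid markers 5 were lower and 0 higher, Hbb-y, an embryonic beta globin, with a log2 fold change of -0.99 (limma adjusted p 0.0218), and their summed level was 739842 to 811886 normalized reads in wild-type and 419934 to 451344 in the transgenic libraries, with no marker at 0. Of 14 epithelial markers tested 2 were higher (Krt18 and Krt14), and the sum was 22900 to 30253 in wild-type and 37245 to 40559 in the transgenic libraries, with Krt5 at 0 in some library. Of 12 endothelial markers 0 passed in limma, with 5 at an unadjusted p under 0.05 and 2 called by DESeq2, and the sum was 6218 to 6625 in wild-type and 7912 to 8656 in the transgenic libraries, with no marker at 0. Of 14 markers of crest mesenchyme Msx1 was higher and Tfap2a and Barx1 were lower, with log2 fold changes of 1.16, -1.06 and -2.21 (limma adjusted p 0.0297, 0.0289 and 0.0321), and the sum was 24433 to 35294 in wild-type and 18937 to 25898 in the transgenic libraries. After the length correction, which left 1% of all genes called, 1 erythroid marker and Tfap2a were lower, and no marker of the other lists passed. With length and GC content corrected, which left 7.88% of all genes called, the erythroid markers Hbb-y, Slc4a1, Hba-a1 and Hba-x passed. Krt18, Krt14, Msx1, Tfap2a and Barx1 passed too, and the limma adjusted p values of all these genes ran from 0.0163 to 0.0405. The other erythroid markers are not given for this correction. Markers of neurons, muscle and heart and myeloid cells gave 0 calls of 12, 11 and 7 tested, with 1, 2 and 0 at an unadjusted p under 0.05 and 0, 2 and 0 called by DESeq2. The smallest limma adjusted p in each list without a call was 0.0583 for Emcn of endothelium, 0.12 for Neurog2 of neurons, 0.0557 for Tcf21 of muscle and 0.238 for C1qb of myeloid cells. The sum for muscle and heart was 2960 to 3134 in wild-type and 4145 to 4346 in the transgenic libraries, with Myog at 0 in some library. The sums for neurons (958.6 to 1282 in wild-type, 788.1 to 1156 in the transgenic libraries) and for myeloid cells (150.2 to 178 and 166.1 to 234.6, with C1qa at 0 in some library) overlapped between the groups. In both transgenic libraries the summed levels of erythroid markers were thus lower than in both wild-type libraries. Those of epithelial, endothelial and muscle and heart markers were higher. Single markers were less uniform: the groups overlapped for 4 of 13 erythroid, 3 of 14 epithelial, 7 of 12 endothelial and 7 of 11 muscle and heart markers. Against the direction of the sum went 2, 3, 3 and 4 log2 fold changes in these lists. The part of these cell types in the values of the glycolysis and hypoxia response genes was not tested.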

How the data were processed

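First pharyngeal arch RNA of 2 wild-type and 2 Wnt1-Cre;pMes-Bmp4 libraries was read from 1 deposited table of normalized gene counts. Per the file headers the reads were counted with featureCounts, and per the submitters' processing notes fastp 0.21.0 and the build mm10 were used. Which aligner, annotation, strandedness and normalizing tool applied is not given in the sources used here. The deposited values are a signal, gene counts divided by a size factor for each library: 100% of them were whole reads within 0.01 after multiplication by 1.348, 0.9723, 0.9376 and 0.8248. The recovered totals were 47849092, 33763574, 31404494 and 29607541 reads, so counting error is small against the spread between libraries for all but the lowest genes.

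Values were analysed as log2(value + 1) with limma 3.58.1 and a mean-variance trend in R 4.3.3, keeping the 16746 genes whose mean reached 10, with Benjamini-Hochberg adjustment over all of them and a threshold of 0.05. There were 2 residual degrees of freedom and 5.26 prior ones. As alternatives, edgeR 4.0.16 (quasi-likelihood test) and DESeq2 1.42.0 were run on the recovered reads, where edgeR called 409 genes higher and 915 lower. Other alternatives were scalings, filters, left-out libraries, blocks, and corrections of each library for transcript length or for length and GC content with splines of 4 degrees of freedom, using the longest GENCODE M21 transcript other than retained introns and decay targets. Lengths covered 96.9% of tested genes. Near-identical copies were found with blastn 2.17.0 at 95% identity over at least 200 bases. Upstream sequences are from RefSeq on GRCm38.p6. Python 3.11.15 and matplotlib 3.10.9 drew the figures.

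The members and gene lists were chosen with earlier results of these data known. Values in every library are given for members past the threshold, the 2 of each role with the smallest p, Hif1a and Epas1. From each further list the genes named for their difference were at most 4 past the threshold, or the 1 with the smallest p. Most of these are given without values in every library. Other members given by library were chosen after their values were seen. Of the symbols listed, 26 had been turned into dates and were not renamed.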

Additional observations from a re-analysis of the deposited data

How the results depend on the processing

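With 2 libraries a group, the spread of each gene rests mainly on all other genes, and a lone library was assumed to vary like the other group. The median log2 fold change of the members stayed within the spread between libraries under all 20 alternatives (0.19, and 0.16 to 0.24 with 1 library left out). The counts of members called, 1 higher and 1 lower, moved more. They were 2 and 2 without a filter, where 4.54% of all genes passed. A mean of at least 50 also gave 2 and 2, where 14.3% passed. Quantile scaling gave 5 and 2 (8.83% of all genes), DESeq2 5 and 2 (16.8%) and robust limma 4 and 2 (12%). Limma without the trend called 0 of 16746 genes, so its 0 and 0 is no result about the members. There 6 and 2 members had an unadjusted p under 0.05, a level for which the share of all genes was not taken. Length corrections by either choice of transcript gave 0 and 0, against 1% and 1.54% of all genes. With length and GC corrected 1 was higher, Pfkl, and 2 were lower, Hk2 and Egln1, where 7.88% of all genes passed. With 1 library left out 0 to 9 were higher and 0 to 4 lower. The labels do not say whether the shared replicate numbers pair the libraries. The differences of library 2 minus library 1 correlated at -0.15 between the groups over 16746 genes. With 1 difference a group this value cannot decide the question. A replicate block gave 0 higher and 1 lower. The crossed block gave 7 and 2. Over all genes the 2 blocks called 165 and 543, and 1763 and 1952. The crossed block, the correction with the longest transcript of any type and the sums with near-identical copies were added after seeing the data.

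Of the 34 members 23 kept 1 sign throughout, and the other 11 changed sign, none of them a called gene; the cause was not tested. Gapdh was -0.022 with TMM and -0.092 with quantile scaling. Over fits that leave out 1 library, the log2 fold change ran from -0.029 to 0.27 for Hk1, -0.021 to 0.099 for Pfkp, -0.42 to 0.087 for Pfkfb3, -0.019 to 0.080 for Aldoa, -0.60 to 0.60 for Gapdh, -0.62 to 0.013 for Vegfa, -0.21 to 0.41 for Ankrd37, -0.47 to 0.053 for Ndrg1, -0.80 to 1.08 for Adm and -0.082 to 0.032 for P4ha1. With length corrected Gpi1 was -0.0027, Pfkfb3 0.043, Aldoa -0.19, Gapdh -0.21, Ankrd37 -0.062, Adm -0.069 and P4ha1 0.057. With length and GC corrected Pfkfb3 was 0.078, Aldoa -0.088, Gapdh -0.13, Ankrd37 -0.088 and Adm -0.089. With the longest transcript of any type Pfkfb3 was 0.010, Aldoa -0.18, Gapdh -0.094, Ankrd37 -0.061, Adm -0.064 and P4ha1 0.022.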
